A study of Homo sapiens with 8 samples.

Results

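GDF15 and 9 further genes of TGF-beta superfamily signalling were followed across 8 RNA-seq libraries of IMR90, a human fibroblast line from fetal lung. The genes were chosen by name, with earlier results of these data known. They were GDF15, INHBA, TGFB1, TGFB2, TGFB3, BMP2, BMP4, BMP6, GDF11 and LTBP2, 10 of the 18216 genes in the expression table, and all 10 passed the filter on low values that left 14074 genes to test. The first 9 encode secreted ligands. LTBP2 encodes a matrix protein of the latent TGF-beta binding protein family and is not a ligand.

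The libraries formed 4 groups of 2, which were cells given DMSO, the solvent, and cells given Nutlin-3a at 3 µg/mL for 6, 9 or 12 h. Nutlin-3a keeps the ubiquitin ligase MDM2 from binding p53, so that p53 builds up. All cells were at passage 28 and grew in 3% oxygen and 10% serum, and no p53-deficient cells were compared. The sources used here do not give the duration of the DMSO cultures or say whether replicates were separate cultures. The p-values therefore reflect the spread among these libraries alone, which may be technical. The same DMSO pair is the baseline of every comparison with Nutlin-3a, and exposure time and harvest time cannot be told apart.

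Ligands of the superfamily are made as precursors, cleaved, and secreted as dimers that bring together type I and type II receptor serine kinases. TGF-beta and activin receptors pass the signal mainly to SMAD2 and SMAD3, and BMP receptors to SMAD1, SMAD5 and SMAD9. GDF15 stands apart, since its receptor is GFRAL, which signals through the tyrosine kinase RET. GDF15 is released by many stressed cells and is a known direct target of p53. Fibroblasts are a main source and a main target of TGF-beta, under which they lay down matrix.

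Libraries held 21.9 to 33.6 M gene reads (M, 1e6 reads). Values are normalized counts, which are reads divided by the size factor of the library, and both libraries of a group are given (replicate 1, then replicate 2). A gene is said to have risen or fallen where limma called it after Benjamini-Hochberg adjustment over all 14074 genes, at a threshold of 0.05. Changes are log2 fold changes with their standard errors. The widest replicate pair was DMSO, where log2 values differed between libraries with an SD of 0.174 over 11461 genes. The same SD was 0.129, 0.119 and 0.118 at 6, 9 and 12 h. All 6 p53 targets chosen to check the treatment rose at each time, and CDKN1A, the p21 cell cycle inhibitor, rose by 3.47, 3.85 and 3.90 at 6, 9 and 12 h. Fibroblast markers were all 10 in the table, and their summed level was 926912 to 934120 in DMSO libraries, 898465 to 907395 at 6 h, 1066170 to 1077030 at 9 h and 1107120 to 1122580 at 12 h. Most of this sum was the collagen chains COL1A1 and COL1A2, with means of 582288 and 311370.0 at 12 h against 467683 and 245564 in DMSO. By gene, 2 of the 10 rose and 1 fell at 6 h, 4 rose and 1 fell at 9 h, and 4 rose and 2 fell at 12 h, and PDGFRA averaged 3886 at 12 h against 5272 in DMSO. Of 8 epithelial markers 6 were in the table and 2 were tested. Their sums were 279 to 299 in DMSO libraries, 309 to 335 at 6 h, 337 to 365 at 9 h and 363 to 399 at 12 h. Most of this epithelial sum was CLDN4, with a mean of 353 at 12 h against 256 in DMSO. CDH1 stayed at or below 3.75. Of the 2 epithelial markers tested, 1 rose at 9 h and 1 at 12 h. Of 7 endothelial markers 6 were in the table, with sums of 2018 to 2135 in DMSO libraries, 1919 to 2031 at 6 h, 1643 to 1745 at 9 h and 1483 to 1562 at 12 h. Most of this endothelial sum was TEK, with a mean of 1438 at 12 h against 1973 in DMSO. CDH5 stayed at or below 6.55. Of the 4 endothelial markers tested, 1 fell at 9 h and 1 at 12 h. Of 7 immune markers 4 were in the table, with sums of 755 to 923 in DMSO libraries, 797 to 904 at 6 h, 948 to 1016 at 9 h and 929 to 986 at 12 h. Most of that sum was CD68, and the leukocyte antigen PTPRC stayed at or below 5.77. Of the 2 immune markers tested, CSF1R rose at 6 h, with a mean of 38.3 at 6 h against 16.1 in DMSO, and CD68 rose at 9 h (means of 952 at 9 h against 815 in DMSO). The 8 markers of smooth muscle and pericytes summed to 22663 to 24273 in DMSO libraries, 26546 to 26635 at 6 h, 27871 to 27879 at 9 h and 26728 to 27594 at 12 h. These 8 did not move together, since 2 rose and 3 fell at 6 h, and 2 rose and 1 fell at 9 h and at 12 h. CSPG4 averaged 10582 at 6 h against 6900 in DMSO, and CNN1 2578 at 6 h against 3179 in DMSO. The part of other cell types in the changes described here was not tested.

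GDF15 and INHBA had the largest increases among the 10 genes at 6 h, and the bases just before their annotated starts are therefore shown. Sequences are from RefSeq (GRCh38.p14), whose promoter table held 12 windows for 9 of the 10 genes, each with 250 bases before and 50 after the start. BMP2 had no entry. Capitals mark the TATA box letters TATAAA.
GDF15, chr19:18385908-18386157, + strand: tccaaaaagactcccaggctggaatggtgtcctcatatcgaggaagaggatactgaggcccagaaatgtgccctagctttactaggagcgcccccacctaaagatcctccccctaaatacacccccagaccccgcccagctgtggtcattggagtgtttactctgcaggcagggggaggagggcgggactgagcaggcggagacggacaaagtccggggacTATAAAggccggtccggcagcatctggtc
INHBA, chr7:41703091-41703340, − strand: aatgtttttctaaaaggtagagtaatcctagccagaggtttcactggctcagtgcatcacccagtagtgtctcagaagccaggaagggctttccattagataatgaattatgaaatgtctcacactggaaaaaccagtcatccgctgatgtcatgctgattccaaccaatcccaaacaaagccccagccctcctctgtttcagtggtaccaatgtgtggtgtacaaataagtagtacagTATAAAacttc
In GDF15 the letters begin at −29 from the start, and in INHBA at −11. The GDF15 window also held a 20-base match to the p53 consensus, which is a pair of decamers each with a C and a G fixed in its core, here without a spacer and with 3 mismatches. It lies at 29 to 48 bases after the start. Capitals mark the 4 core bases of each decamer.
GDF15, chr19:18386186-18386205, + strand: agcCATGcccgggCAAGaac
With up to 3 mismatches allowed, 392 of 35116 promoter windows (1.12%) held such a match, and of the 12 windows of these genes the GDF15 window alone did. A match describes letters and does not show that p53 binds there.

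TATAAA began between −40 and −20 in 4 of the 12 windows (33.3%), those of GDF15, TGFB2, TGFB3 and GDF11, against 809 of all 35116 windows (2.3%). The 4 genes did not share a direction of change, as the values given further on show. The 38 bases from −42 to −5 of the other 3 are shown with the same letters in capitals.
TGFB2, chr1:218345294-218345331, + strand: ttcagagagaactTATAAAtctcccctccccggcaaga
TGFB3, chr14:75982000-75982037, − strand: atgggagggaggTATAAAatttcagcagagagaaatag
GDF11, chr12:55743080-55743117, + strand: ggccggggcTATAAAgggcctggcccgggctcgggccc
TGFB3 had 2 windows and only the one shown held the letters. The SMAD box letters CAGAC, searched on both strands, were in 8 of the 12 windows (66.7%) and in 45.3% of all windows. The GC box letters GGGCGG, also on both strands, were in 7 of 12 (58.3%) and in 45.0% of all. The AP-1 letters TGANTCA were in 0 of 12 and in 7.71% of all.

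Of the 10 genes, 3 rose at every Nutlin-3a time (GDF15, INHBA and LTBP2) and BMP4 fell at every time. TGFB1, TGFB2, TGFB3 and BMP2 were called at some times only, and BMP6 and GDF11 at none. Shares of all tested genes called at every time or at none are not given here, and those that follow are for single times. At 6 h, 4 of 10 rose and 2 fell, where 16.1% of all tested genes rose and 20.6% fell (36.7% in either direction). At 9 h, 5 rose and 1 fell, where 16.2% of all genes rose and 19.1% fell (35.3% in either direction). At 12 h, 4 rose and 3 fell, against 18.5% and 21.4% of all genes (39.9% in either direction). Quantile scaling moved the all-gene balance at 12 h, where 57.6% of called genes had risen with it and 46.4% without it. The median change over the 10 genes was 0.21, 0.18 and 0.18 at 6, 9 and 12 h, beside −0.01, 0.01 and 0.01 over all tested genes. Because the 10 genes were chosen with earlier results known, the values for all genes are given for scale only. Between exposure times, 2 of the 10 rose and 2 fell at 9 h against 6 h, where 8.52% of all genes rose and 9.9% fell. At 12 h against 6 h, 2 rose and 2 fell, where 14.4% rose and 17.1% fell (31.5% in either direction). At 12 h against 9 h, 1 fell, where 2.92% of all genes fell, and limma called 0 of the 10 as risen (0 at an unadjusted p under 0.05, and 0 by edgeR and DESeq2), where 1.08% rose. GDF15 was the only one of the 10 whose group means spanned more than 1 on the log2 scale (4.52), and the other spans lay between 0.17 and 0.87.

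**Figure D1:**
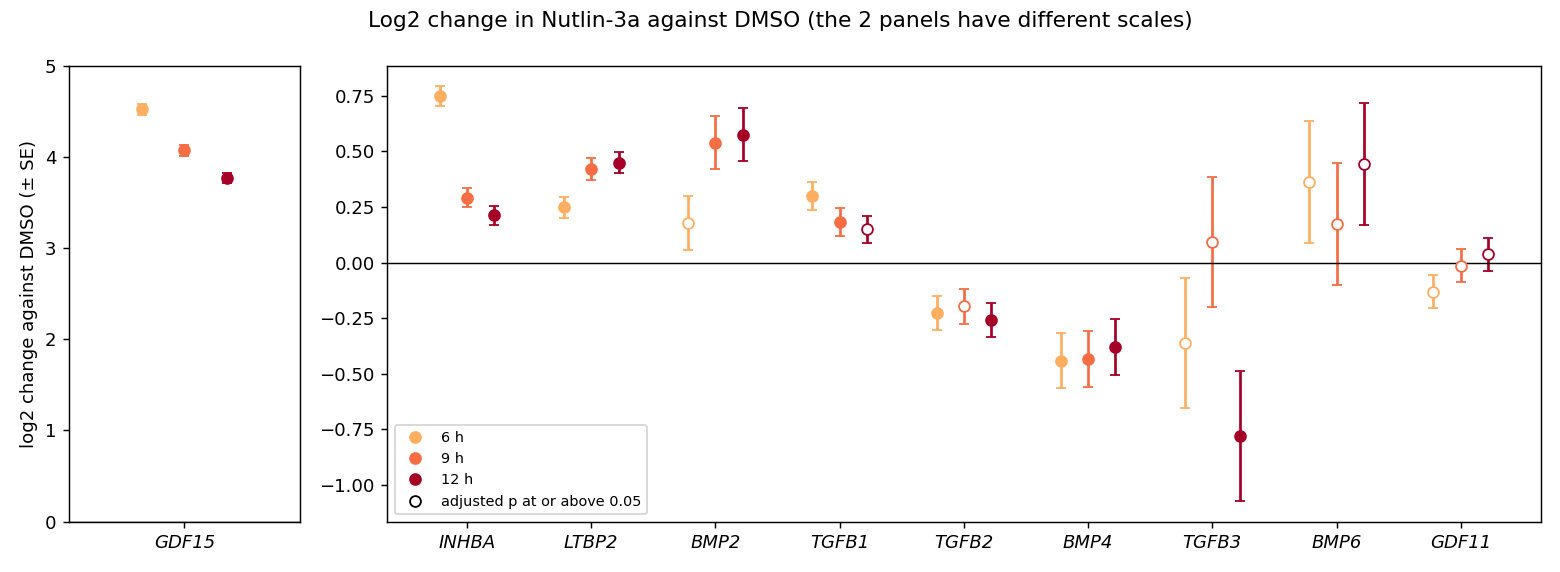
Log2 change against DMSO at 6, 9 and 12 h for the 10 genes, with the standard error as a bar and limma calls as filled points, on a scale of its own for GDF15 (left panel). GDF15 lies at 4.52, 4.07 and 3.77, while the other 9 genes lie between −0.78 (TGFB3 at 12 h) and 0.75 (INHBA at 6 h).

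GDF15, the stress-responsive cytokine that acts through GFRAL, was lowest in DMSO and highest at 6 h. Its normalized counts were 206 and 186 in DMSO libraries, 4587 and 4450.0 at 6 h, 3247 and 3370.0 at 9 h, and 2734 and 2629 at 12 h. The groups did not overlap at any time, and the 3 Nutlin-3a times did not overlap with one another either. GDF15 rose by 4.52 ± 0.06 at 6 h (23.0-fold, adjusted p = 8.09e-22), by 4.07 ± 0.06 at 9 h (16.8-fold, adjusted p = 4.15e-21) and by 3.77 ± 0.06 at 12 h (13.6-fold, adjusted p = 1.87e-20). Among 14074 genes ordered by log2 change this was the largest increase at 6 h (rank 1), with rank 4 at 9 h and rank 7 at 12 h. MIR3189 lies within GDF15, and the row of this microRNA held at most 5 reads in any library.

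After 6 h the GDF15 transcript fell while remaining far above DMSO. The level at 9 h was 73.2% of that at 6 h (−0.45 ± 0.06, adjusted p = 1.44e-05). At 12 h it was 81.0% of the 9 h level (−0.30 ± 0.06, adjusted p = 0.00310). At 12 h it was 59.3% of the 6 h level (−0.75 ± 0.06, adjusted p = 4.23e-09). The step between 9 and 12 h rests on few libraries, since it was no longer called without 9 h replicate 2 (−0.28, adjusted p = 0.0932), without 12 h replicate 2 (−0.27, adjusted p = 0.112) or in a fit without the intensity trend (adjusted p = 0.136).

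**Figure D2:**
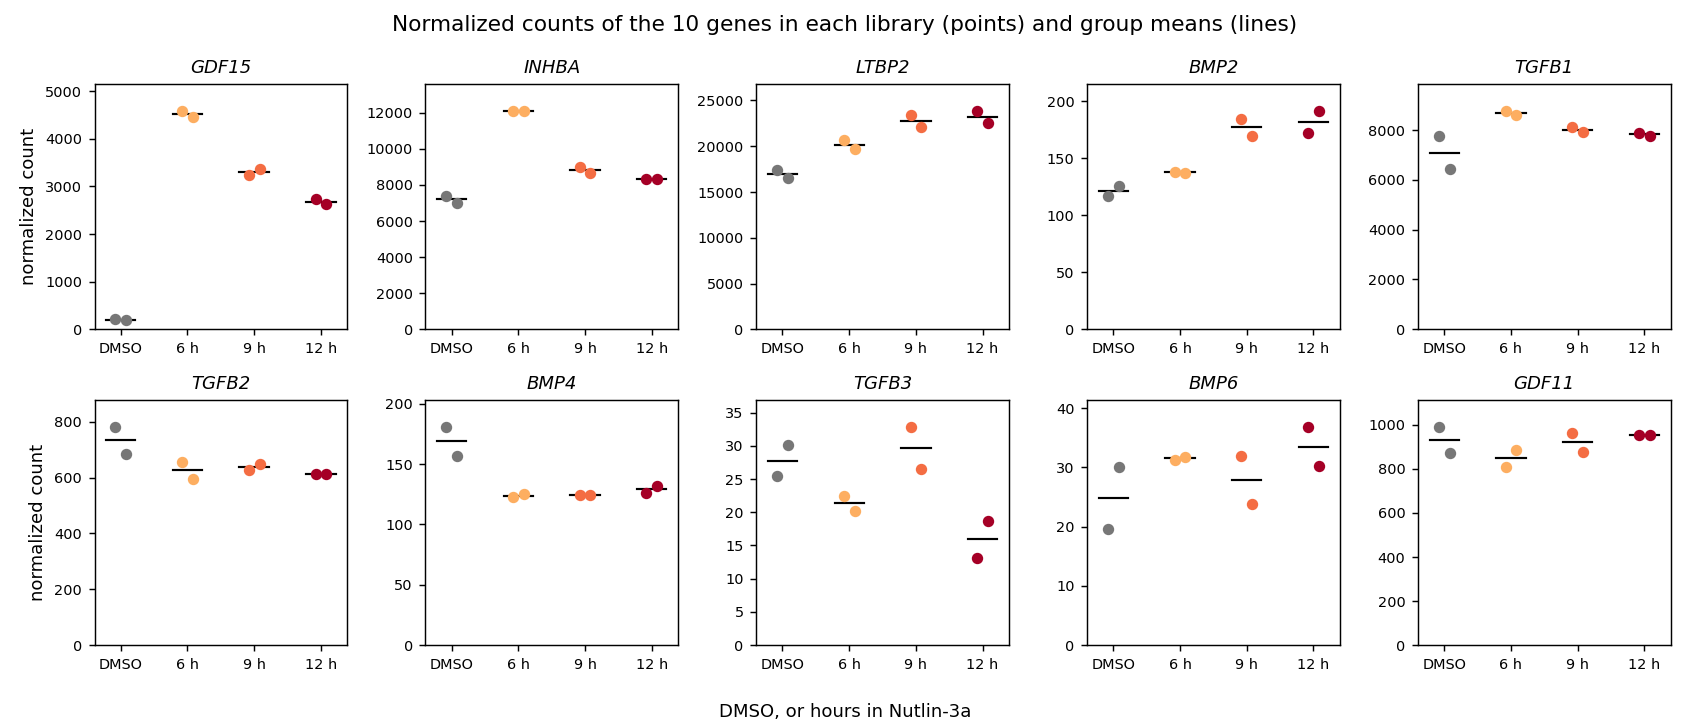
Normalized counts of the 10 genes, 1 panel per gene with its own axis from 0, with both libraries of DMSO and of 6, 9 and 12 h of Nutlin-3a as points and the group mean as a line. GDF15 stands at 186 to 206 in DMSO and at 2629 to 4587 under Nutlin-3a, while GDF11 stays between 809 and 991 in all libraries.

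The 5 genes whose profiles over the 8 libraries were most like that of GDF15 were PHLDA3, SESN2, BBC3, PPM1D and TRAF4. Likeness was measured by Pearson's r of log2 values among the 673 other genes with a span of at least 1 and a mean of at least 50, and is a description only, since all profiles share the same libraries and the same DMSO pair. PHLDA3, an inhibitor of AKT, had r = 0.999 and changes of 1.73 ± 0.05, 1.56 ± 0.05 and 1.44 ± 0.05 at 6, 9 and 12 h. SESN2, a stress-induced sestrin, had r = 0.998 and changes of 2.07, 1.76 and 1.66. BBC3, which encodes the pro-apoptotic protein PUMA, had r = 0.997 and changes of 2.82, 2.44 and 2.47. PPM1D, the phosphatase WIP1, had r = 0.997 with 1.17, 1.04 and 1.04, and TRAF4, an adaptor protein, had r = 0.997 with 1.10, 0.96 and 0.90. Each of these 5 had its highest mean at 6 h, as GDF15 did, and each rose by less than GDF15 at every time. The shared peak is no separate result, since the 5 were chosen for likeness to GDF15 in these same libraries.

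**Figure D3:**
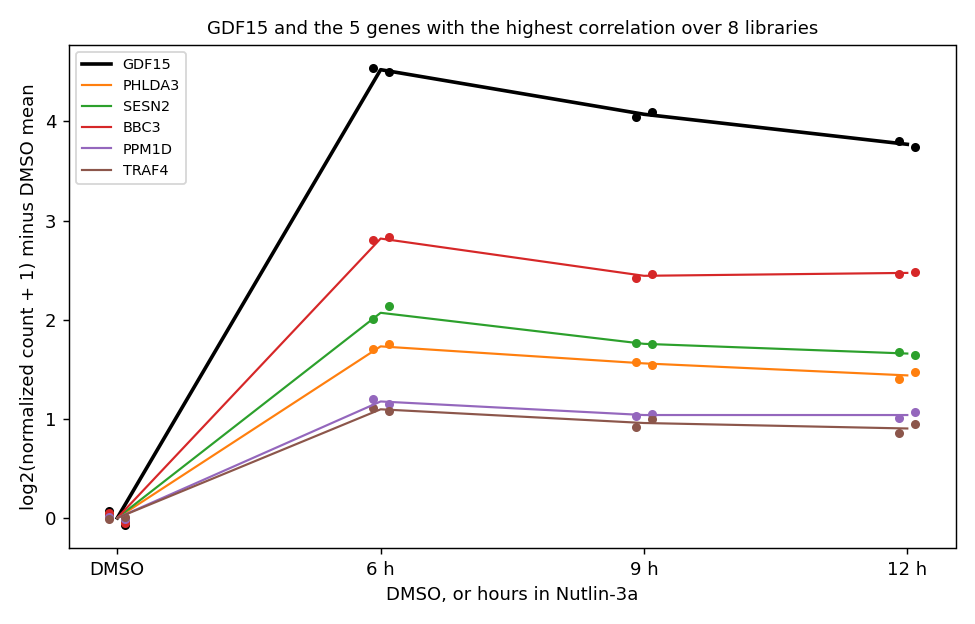
Log2 change from the DMSO mean for GDF15 and the 5 genes nearest to it in profile, with both libraries of DMSO and of 6, 9 and 12 h as points and group means as lines. All 6 lines are highest at 6 h, with GDF15 at 4.52 and the other 5 between 1.10 and 2.82.

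INHBA encodes the inhibin beta A subunit, and its homodimer is activin A, a ligand that signals through SMAD2 and SMAD3. Its normalized counts were 7380.5 and 7022 in DMSO libraries, 12108 and 12084 at 6 h, 8991 and 8647 at 9 h, and 8351 and 8329 at 12 h. All Nutlin-3a libraries lay above both DMSO libraries, and the pair at 6 h stood above all others. INHBA rose by 0.75 ± 0.04 at 6 h (1.68-fold, adjusted p = 5.35e-11), by 0.29 ± 0.04 at 9 h (adjusted p = 2.50e-05) and by 0.21 ± 0.04 at 12 h (adjusted p = 0.000676). The level fell to 72.9% of the 6 h level at 9 h (−0.46 ± 0.04, adjusted p = 3.18e-07) and to 68.9% of it at 12 h (−0.54 ± 0.04, adjusted p = 9.16e-09). Between 12 and 9 h the change was −0.08 ± 0.04 (adjusted p = 0.443). The calls of INHBA held under every alternative that was run.

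INHBA-AS1 lies opposite INHBA, and no source used here gives the strand setting of the counting, so reads of the pair cannot be told apart. INHBA-AS1 had normalized counts of 31.3 and 46.2 in DMSO libraries, 73.8 and 65.3 at 6 h, 62.7 and 50.2 at 9 h, and 63.8 and 57.2 at 12 h. It also rose at each time, by 0.85 ± 0.21 (adjusted p = 0.00321), 0.55 ± 0.21 (adjusted p = 0.0481) and 0.65 ± 0.21 (adjusted p = 0.0174). Its level in every library was far below that of INHBA, whose lowest value was 7022.

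The 3 TGF-beta isoforms are secreted in latent form and share the receptors TGFBR1 and TGFBR2. TGFB1 rose at 6 and 9 h, TGFB2 fell at 6 and 12 h, and TGFB3 fell at 12 h, so they did not move together. TGFB1, the main isoform of fibrotic tissue, had normalized counts of 7766 and 6417 in DMSO libraries, 8767 and 8617 at 6 h, 8107 and 7923 at 9 h, and 7899.5 and 7757 at 12 h. The DMSO pair was wide, and DMSO replicate 1 lay above 12 h replicate 2. TGFB1 rose by 0.30 ± 0.06 at 6 h (adjusted p = 0.000647) and by 0.18 ± 0.06 at 9 h (adjusted p = 0.0256), and was not called at 12 h (0.15 ± 0.06, adjusted p = 0.0609). At 9 h the value without DMSO replicate 2 was 0.05 and no longer called (adjusted p = 0.455), nor was it without 9 h replicate 1 (0.17, adjusted p = 0.151) or 9 h replicate 2 (0.20, adjusted p = 0.0833). At 12 h it was called once DMSO replicate 1 was left out (0.29, adjusted p = 1.01e-07) and with TMM scaling (adjusted p = 0.0318) or edgeR (adjusted p = 0.0371). The 6 h call was lost only in the fit without the intensity trend (adjusted p = 0.0621). Between times TGFB1 was not called, with −0.12 ± 0.06 at 9 h against 6 h (adjusted p = 0.210) and −0.15 ± 0.06 at 12 h against 6 h (adjusted p = 0.0688). Without DMSO replicate 1 or 2, these became adjusted p = 0.0103 and 0.0101 at 9 h and 0.000438 and 0.000418 at 12 h.

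TGFB2, an isoform needed in heart and skeletal development, had 782 and 685 in DMSO libraries, 657 and 596 at 6 h, 626 and 650.4 at 9 h, and 611 and 612 at 12 h, all in normalized counts. Both DMSO libraries lay above all 6 Nutlin-3a libraries. In bulk RNA, fewer cells of a type and less RNA per cell cannot be told apart. TGFB2 fell by 0.23 ± 0.08 at 6 h (adjusted p = 0.0265) and by 0.26 ± 0.08 at 12 h (adjusted p = 0.0112), and was −0.20 ± 0.08 at 9 h (adjusted p = 0.0535). At 6 h it was no longer called when DMSO replicate 1 (−0.13, adjusted p = 0.225) or 6 h replicate 2 (−0.16, adjusted p = 0.241) was left out, with quantile scaling (−0.16, adjusted p = 0.142) and in DESeq2 (adjusted p = 0.0772). Nor was it called at 12 h when DMSO replicate 1 (−0.16, adjusted p = 0.107), 12 h replicate 1 (adjusted p = 0.0647) or 12 h replicate 2 (adjusted p = 0.0645) was left out, or with quantile scaling (−0.17, adjusted p = 0.108). At 9 h TGFB2 was called once DMSO replicate 2 was left out (−0.29, adjusted p = 0.00241).

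TGFB3, an isoform known for its role in closure of the palate, had low counts. Its normalized counts were 25.4 and 30.1 in DMSO libraries, 22.5 and 20.2 at 6 h, 32.9 and 26.5 at 9 h, and 13.1 and 18.7 at 12 h, from 16 to 33 reads per library. The 12 h pair was the lowest, and the 9 h pair overlapped with DMSO. TGFB3 fell by 0.78 ± 0.29 at 12 h (adjusted p = 0.0392) and was not called at 6 h (−0.36 ± 0.29, adjusted p = 0.369) or 9 h (0.09 ± 0.29, adjusted p = 0.844). At this depth the 12 h call was fragile. It was lost in DESeq2 (adjusted p = 0.191) and without any of DMSO replicate 1 (−0.90, adjusted p = 0.0508), DMSO replicate 2 (−0.66, adjusted p = 0.160), 9 h replicate 1 (adjusted p = 0.0525) or 12 h replicate 1 (−0.54, adjusted p = 0.265).

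LTBP2 binds fibrillin microfibrils and, unlike its relatives, is not known to hold latent TGF-beta. Its normalized counts were 17456 and 16494 in DMSO libraries, 20635 and 19695 at 6 h, 23381 and 22089 at 9 h, and 23861 and 22509 at 12 h. Every Nutlin-3a library stood above both DMSO libraries, and the pairs at 9 and 12 h stood above the pair at 6 h. LTBP2 rose by 0.25 ± 0.05 at 6 h (adjusted p = 0.000372), 0.42 ± 0.05 at 9 h (adjusted p = 5.95e-07) and 0.45 ± 0.05 at 12 h (adjusted p = 1.90e-07), and these calls held under every alternative. It was higher at 9 h than at 6 h (0.17 ± 0.05, adjusted p = 0.0152) and at 12 h than at 6 h (0.20 ± 0.05, adjusted p = 0.00291), whereas 12 against 9 h gave 0.03 ± 0.05 (adjusted p = 0.868). Both calls against 6 h were lost in the fit without the intensity trend (adjusted p = 0.147 at 9 h and 0.0700 at 12 h). The first of these was lost without 6 h replicate 2 (0.14, adjusted p = 0.158) or 9 h replicate 1 (0.13, adjusted p = 0.229). The second was lost without 6 h replicate 2 (0.17, adjusted p = 0.0557) or 12 h replicate 1 (0.16, adjusted p = 0.0830).

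Of the 3 bone morphogenetic proteins, which signal through SMAD1, SMAD5 and SMAD9, BMP2 rose, BMP4 fell and BMP6 was not called. BMP2, an inducer of bone formation, had normalized counts of 117 and 126 in DMSO libraries, 138 and 137 at 6 h, 184 and 169.9 at 9 h, and 172 and 191 at 12 h. The 6 Nutlin-3a libraries lay above both DMSO libraries, and the pairs at 9 and 12 h lay above the pair at 6 h. BMP2 rose by 0.54 ± 0.12 at 9 h (adjusted p = 0.00135) and by 0.58 ± 0.12 at 12 h (adjusted p = 0.000634), calls that held under every alternative, and was not called at 6 h (0.18 ± 0.12, adjusted p = 0.272). It was higher at 9 h than at 6 h (0.36 ± 0.12, adjusted p = 0.0409) and at 12 h than at 6 h (0.40 ± 0.12, adjusted p = 0.0150). The 9 against 6 h call was lost in DESeq2 (adjusted p = 0.197) and without either 6 h library (adjusted p = 0.142 and 0.136 without replicates 1 and 2), either 9 h library (0.257 and 0.0993) or either 12 h library (0.0550 and 0.0566). The 12 against 6 h call was lost in DESeq2 (adjusted p = 0.103) and without 6 h replicate 1 (0.0666), 6 h replicate 2 (0.0646) or 12 h replicate 2 (0.32, adjusted p = 0.154).

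BMP4, which patterns the early embryo and the lung buds, had 181 and 157 in DMSO libraries, 123 and 125 at 6 h, 124 and 124 at 9 h, and 126 and 132 at 12 h, all in normalized counts. All 6 Nutlin-3a libraries lay below both DMSO libraries, and the 3 times lay close together. BMP4 fell by 0.44 ± 0.13 at 6 h (adjusted p = 0.00877), 0.43 ± 0.13 at 9 h (adjusted p = 0.0101) and 0.38 ± 0.13 at 12 h (adjusted p = 0.0198). DESeq2 called none of the 3 (adjusted p = 0.0719, 0.0711 and 0.110 at 6, 9 and 12 h). Without DMSO replicate 1 the changes were −0.34, −0.33 and −0.28 (adjusted p = 0.0966, 0.102 and 0.170). The 6 h call was also lost without 6 h replicate 1 (adjusted p = 0.0516), the 9 h call without 9 h replicate 1 or 2 (0.0546 and 0.0567) and the 12 h call without 12 h replicate 1 or 2 (0.112 and 0.0598).

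BMP6, known for its part in iron regulation by the liver, had normalized counts of 19.5 and 30.1 in DMSO libraries, 31.3 and 31.7 at 6 h, 31.9 and 23.8 at 9 h, and 36.8 and 30.2 at 12 h. The DMSO libraries differed by more than the DMSO mean differed from that at any time. Its changes of 0.36 ± 0.27, 0.17 ± 0.27 and 0.44 ± 0.27 at 6, 9 and 12 h were not called (adjusted p = 0.333, 0.667 and 0.215), from 20 to 45 reads per library.

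GDF11, a close relative of myostatin, had 991 and 871 in DMSO libraries, 809 and 888 at 6 h, 964 and 877 at 9 h, and 956 and 952 at 12 h, in normalized counts. Its groups overlapped with DMSO at each time, with changes of −0.13 ± 0.07 (adjusted p = 0.179), −0.02 ± 0.07 (adjusted p = 0.898) and 0.04 ± 0.07 (adjusted p = 0.720). Without DMSO replicate 2 it was called as lower at 6 h (−0.23, adjusted p = 0.00890). At 12 h against 6 h it was at 0.17 ± 0.07 (adjusted p = 0.0885), and was called without DMSO replicate 1 (adjusted p = 0.0175) or 2 (adjusted p = 0.0166). GDF11 overlaps SARNP, which had a normalized count of 1364 to 1635 across libraries, and BMP6 overlaps TXNDC5, at 19.2 to 42.7, so both ligands' counts are uncertain where reads of the overlap could go to either gene.

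Levels of different genes were compared per kilobase of exon, with exon lengths from GENCODE v29, because the annotation behind the counts is not given in the sources used here. In DMSO the order by normalized count per kilobase was TGFB1 (2561), LTBP2 (1981), INHBA (1092), GDF15 (163), TGFB2 (145), GDF11 (108), BMP4 (80.2), BMP2 (33.7), TGFB3 (10.0) and BMP6 (8.93). Only TGFB3 and BMP6 overlapped with their neighbour in that order. At 6 h GDF15 was highest (3765), above TGFB1 (3139) and LTBP2 (2354), with no overlap among these 3. At 9 h TGFB1 (2894) stood first, and GDF15 (2757) and LTBP2 (2654) overlapped. At 12 h TGFB1 (2827) and LTBP2 (2706) came first, without overlap, and GDF15 (2235) followed. Among 13613 genes with a length, GDF15 stood at percentile 97.7 at 6 h, 96.6 at 9 h and 95.6 at 12 h, against 49.8 in DMSO.

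**Figure D4:**
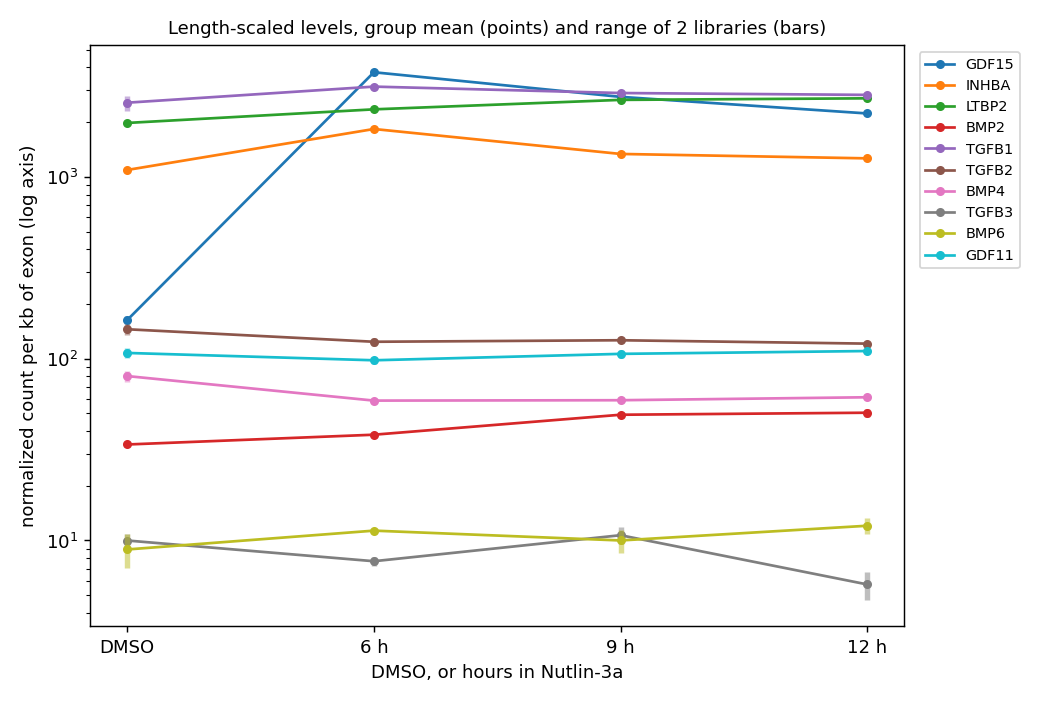
Normalized count per kilobase of exon on a log axis for the 10 genes in DMSO and at 6, 9 and 12 h, with group means as points joined by lines and the range of the 2 libraries as bars. GDF15 lies at 163 in DMSO and between 2235 and 3765 under Nutlin-3a, above all other 9 genes at 6 h and below TGFB1 at 9 and 12 h, while TGFB3 and BMP6 stay between 5.73 and 12.1.

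Other genes of the pathway were read from 7 lists by role. For scale, 16.1% of all tested genes rose and 20.6% fell at 6 h. At 9 h 16.2% rose and 19.1% fell, and at 12 h 18.5% rose and 21.4% fell. Whether any list differed from these shares was not tested. Of 24 other ligands, 18 were in the table and only 7 passed the filter on low values. Among these 7, 1 rose at 6 h (GDF6) and limma called 0 fallen at 6 h, with 0 at an unadjusted p under 0.05 and 0 by edgeR and DESeq2. At 9 and 12 h limma called 0 in either direction, although 1 was higher at 9 h at an unadjusted p under 0.05 and 1 by edgeR, against 0 by DESeq2. At 12 h all of these counts were 0. GDF6, a BMP-type ligand, had a mean normalized count of 85.9 at 6 h against 53.05 in DMSO (0.70 ± 0.21, adjusted p = 0.0143). DESeq2 did not call it (adjusted p = 0.0676), nor did limma when DMSO replicate 1 (0.51, adjusted p = 0.101), 6 h replicate 1 (adjusted p = 0.0767) or 6 h replicate 2 (adjusted p = 0.0674) was left out. INHBB, the beta B subunit of activin B, was at −0.08, −0.03 and 0.24 at 6, 9 and 12 h and was not called. GDF5, a joint morphogen, was at 0.14, 0.51 and 0.38, not called, and passed at 9 h in edgeR (adjusted p = 0.0437) and when DMSO replicate 1 (0.66, adjusted p = 0.0284) or 9 h replicate 1 (0.76, adjusted p = 0.0262) was left out. INHBE, a liver-type activin subunit, was at 0.22, −0.48 and −0.75, not called, and passed at 12 h without DMSO replicate 2 (−1.29, adjusted p = 0.0164).

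Of the 22 receptors and co-receptors, 19 were in the table and 17 were tested. At 6 h 3 rose and 2 fell, at 9 h 3 rose and 1 fell, and at 12 h 3 rose and 1 fell, with medians of 0.07, 0.07 and 0.01. CD109, a co-receptor that binds TGF-beta and dampens its signal, rose by 0.48 ± 0.06, 0.51 ± 0.06 and 0.57 ± 0.06 at 6, 9 and 12 h (adjusted p = 9.27e-07, 2.90e-07 and 5.33e-08). BMPR2, the BMP type II receptor, rose by 0.42 at 6 h and 0.19 at 9 h, each ± 0.05, and was at 0.12 ± 0.05 at 12 h (adjusted p = 0.0834). RGMB, a BMP co-receptor, fell by 0.45 ± 0.04 at 6 h, was at −0.06 ± 0.04 at 9 h and rose by 0.17 ± 0.04 at 12 h (adjusted p = 7.66e-08, 0.328 and 0.00386). BMPR1B, a BMP type I receptor, fell by 0.46, 0.80 and 0.67, each ± 0.15. DESeq2 did not call the 6 h fall (adjusted p = 0.0805), nor did limma when DMSO replicate 2 (−0.31, adjusted p = 0.153) or 6 h replicate 2 (−0.28, adjusted p = 0.254) was left out. Without 9 h replicate 1 the 9 h call of BMPR2 was lost (0.14, adjusted p = 0.158), without DMSO replicate 2 its 12 h change was called (0.17, adjusted p = 0.00266), and without 12 h replicate 1 the 12 h call of RGMB was lost (0.15, adjusted p = 0.0674). The 6 h count of risen receptors was 5 without DMSO replicate 1, the 6 h count of fallen ones was 1 without 6 h replicate 2, and the 12 h counts were 5 risen and 3 fallen without DMSO replicate 2.

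All 16 SMADs and SMAD regulators were tested. At 6 h 6 rose and 5 fell, at 9 h 3 rose and 3 fell, and at 12 h 2 rose and 5 fell, with medians of −0.04, −0.02 and −0.03. PMEPA1, SKIL and SMAD7 are induced by TGF-beta and restrain its signal, and each was highest at 6 h. PMEPA1 had a mean normalized count of 1713 at 6 h against 839.6 in DMSO and rose by 1.03 ± 0.07, 0.48 ± 0.07 and 0.41 ± 0.07 at 6, 9 and 12 h (adjusted p = 1.74e-10, 6.49e-06 and 4.62e-05). SKIL rose by 0.59, 0.25 and 0.22, each ± 0.07 (adjusted p = 1.12e-06, 0.00764 and 0.0145). SMAD7 rose by 0.47 at 6 h and 0.21 at 9 h, each ± 0.06, and was at 0.13 ± 0.06 at 12 h (adjusted p = 0.0802). TGIF1, a corepressor of SMAD2 and SMAD3, fell by 0.23, 0.42 and 0.23, each ± 0.06. SKIL was no longer called at 9 h when DMSO replicate 1 (0.11, adjusted p = 0.0908) or 9 h replicate 1 (0.22, adjusted p = 0.0848) was left out. At 12 h the same held for DMSO replicate 1 (0.08, adjusted p = 0.216), 12 h replicate 1 (adjusted p = 0.0790) or 12 h replicate 2 (adjusted p = 0.0873). SMAD7 lost its 9 h call without 9 h replicate 1 (0.16, adjusted p = 0.147) and was called at 12 h without DMSO replicate 2 (0.16, adjusted p = 0.0279). TGIF1 lost its call at 6 h without 6 h replicate 1 (adjusted p = 0.0610) and at 12 h without 12 h replicate 1 (adjusted p = 0.0593). Of the counts, the fallen ones were 3 at 6 h without 6 h replicate 1 and 2 at 12 h without 12 h replicate 1. The risen ones at 9 h were 5 without DMSO replicate 2 and 1 without 9 h replicate 1, and at 12 h they were 5 without DMSO replicate 2 and 1 without DMSO replicate 1 or either 12 h library.

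Of 20 genes for latency, processing and activation, all were in the table and 19 were tested. At 6 h 6 rose and 1 fell, and at 12 h 8 rose and 1 fell. At 9 h 5 rose and limma called 0 fallen (0 at an unadjusted p under 0.05, and 0 by edgeR and DESeq2). The medians were 0.07, 0.10 and 0.14. FBN2, a fibrillin of the microfibrils that hold latent TGF-beta, was at −0.04 ± 0.05 at 6 h and rose by 0.26 ± 0.05 at 9 h and 0.41 ± 0.05 at 12 h (adjusted p = 0.528, 0.000280 and 9.20e-07). BMP1, a procollagen protease and not a BMP ligand, rose by 0.18, 0.31 and 0.37, each ± 0.05. THBS1, a matricellular protein that can activate latent TGF-beta, rose by 0.42, 0.30 and 0.22, each ± 0.05, and lost all 3 calls with quantile scaling (0.17, 0.12 and 0.07). ITGB5, a subunit of an integrin that activates TGF-beta, rose by 0.30 at 6 h and 0.22 at 9 h, each ± 0.04, and was at 0.03 ± 0.04 at 12 h (adjusted p = 0.658). BMP1 was no longer called at 6 h when DMSO replicate 2 (0.10, adjusted p = 0.0963) or 6 h replicate 2 (0.15, adjusted p = 0.101) was left out, and THBS1 lost its 12 h call without 12 h replicate 1 (adjusted p = 0.0546). Without DMSO replicate 1, 9 rose at 9 h, and without either 12 h library 5 rose at 12 h. The 1 gene fallen at 12 h was not called by edgeR or DESeq2, nor without 12 h replicate 2 or any single library of the 6 and 9 h groups.

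Of 17 secreted antagonists, 14 were in the table and 12 were tested. At 6 h 2 rose and 2 fell, at 9 h 1 rose and 2 fell, and at 12 h 1 rose and 1 fell, with medians of −0.04, −0.09 and −0.02. Follistatin and FSTL3 both bind activin A, and moved in opposite directions at 6 and 9 h. FST, which encodes follistatin, had a mean normalized count of 7050.0 at 6 h against 11566.5 in DMSO and fell by 0.71 ± 0.05 at 6 h and 0.23 ± 0.05 at 9 h, with −0.09 ± 0.05 at 12 h (adjusted p = 3.14e-10, 0.000849 and 0.143). FSTL3 rose by 0.35 ± 0.05, 0.37 ± 0.05 and 0.44 ± 0.05 (adjusted p = 1.17e-05, 4.00e-06 and 3.70e-07). GREM1, which encodes the BMP antagonist gremlin, was at 0.03 ± 0.04 at 6 h and fell by 0.42 ± 0.04 at 9 h and 0.40 ± 0.04 at 12 h (adjusted p = 0.582, 1.15e-07 and 1.44e-07). TWSG1, a BMP-binding protein, rose by 0.26 ± 0.06 at 6 h and was at 0.08 and −0.04 at 9 and 12 h. At 12 h FST was called once DMSO replicate 1 was left out (−0.15, adjusted p = 0.00345). TWSG1 was called higher at 9 h without DMSO replicate 2 (0.18, adjusted p = 0.000671) and lower at 12 h without DMSO replicate 1 (−0.15, adjusted p = 0.00569). The risen antagonists were 2 at 9 h without DMSO replicate 2, and at 12 h they were 2 without DMSO replicate 1 and 3 without DMSO replicate 2. The fallen ones were 1 at 6 h without 6 h replicate 1, and at 12 h they were 3 without DMSO replicate 1 and 2 without DMSO replicate 2.

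All 18 genes known to respond to TGF-beta were tested. At 6 h 8 rose and 2 fell, at 9 h 10 rose and 1 fell, and at 12 h 11 rose. Limma called 0 fallen at 12 h, with 1 at an unadjusted p under 0.05 and 0 by edgeR and DESeq2. The medians were 0.08, 0.21 and 0.18, and with quantile scaling 6 rose at 9 h and 7 at 12 h. HMOX1, heme oxygenase 1, which also responds to oxidants, rose by 1.78, 0.83 and 0.59, each ± 0.08. BHLHE40, a transcription factor, rose by 1.04, 0.85 and 0.73, each ± 0.06. IL11, a cytokine of fibroblasts, rose by 0.58, 0.52 and 0.75, each ± 0.06. These genes were named for their small p-values. The 2 genes that fell at 6 h were POSTN (−0.28) and ACTA2 (−0.26), and POSTN rose at 12 h (0.15). Fallen genes at 6 h were 4 without DMSO replicate 2. At 9 h they were 2 without DMSO replicate 2 and 0 without either 9 h library, and at 12 h they were 1 without either DMSO library.

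All 8 BMP response genes were tested. At 6 h 1 rose and 2 fell, at 9 h 3 rose and at 12 h 4 rose, with medians of 0.06, 0.09 and 0.18. Limma called 0 fallen at 9 and 12 h, with 0 at an unadjusted p under 0.05 and 0 by edgeR and DESeq2. ID1 and ID3 encode inhibitors of helix-loop-helix factors. ID1 was at 0.07 ± 0.05 at 6 h and rose by 0.22 ± 0.05 at 9 h and 0.45 ± 0.05 at 12 h (adjusted p = 0.291, 0.00178 and 3.90e-07). ID3 was at −0.05 ± 0.05 at 6 h and rose by 0.25 ± 0.05 at 9 h and 0.30 ± 0.05 at 12 h (adjusted p = 0.472, 0.000265 and 3.45e-05). MSX2, a homeobox factor, rose by 0.43, 0.74 and 0.85, each ± 0.12, and lost its 6 h call without 6 h replicate 1 (0.36, adjusted p = 0.0860). ID4, of the same family as ID1, fell by 0.59 ± 0.08 at 6 h and was at −0.17 and −0.07 at 9 and 12 h. ID1 was called at 6 h without DMSO replicate 2 (0.13, adjusted p = 0.0241), and ID4 at 9 h without DMSO replicate 1 (−0.30, adjusted p = 0.00263). The 6 h count of risen genes was 2 without DMSO replicate 2 and 0 without 6 h replicate 1, and 1 gene fell at 9 h without DMSO replicate 1.

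**Figure D5:**
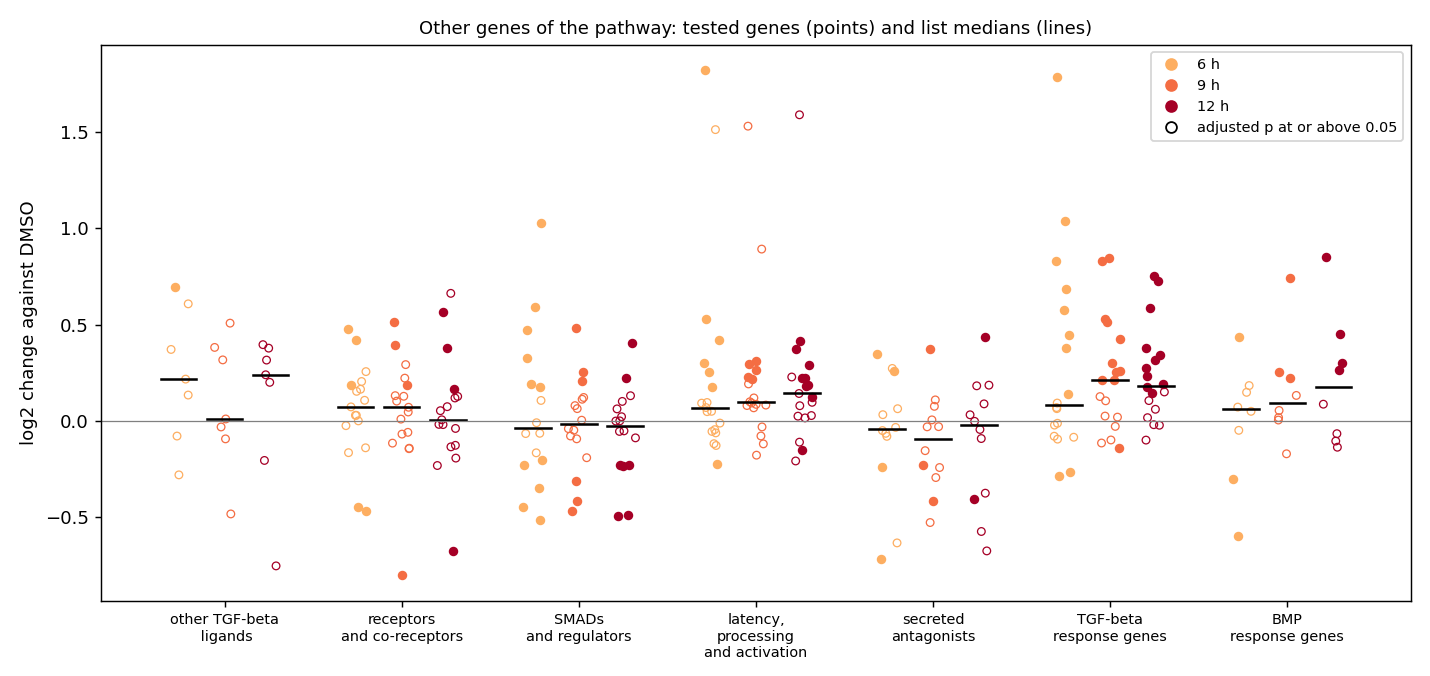
Log2 change against DMSO of every tested gene in the 7 role lists at 6, 9 and 12 h, with called genes filled and the list median as a line. TGF-beta response genes have medians of 0.08, 0.21 and 0.18, and the other 6 lists have medians between −0.09 and 0.24.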

How the data were processed

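PolyA RNA from 8 libraries (4 groups of 2) was sequenced. Per the submitters' processing notes, STAR, DESeq2 and hg19 were used, with no versions listed. The authors deposited size-factor normalized counts per gene, treated here as a normalized signal, and 3 result tables with log2 fold changes (DMSO over Nutlin-3a, sign turned here), a Wald score, p-values and adjusted p-values. Dividing by the value of a single read gave whole numbers within a tolerance of 1e-06, so reads were recovered. Entries for reads assigned to no gene (28.2 to 29.1% of each library) were left out.

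Log2(normalized count + 1) values of all 4 groups went into 1 limma fit (version 3.58.1, R 4.3.3, intensity trend). Residual degrees of freedom were 4 and prior ones 15.5. A gene was tested if 2 or more libraries reached 10, and the log2(value + 1) scale understates changes of low genes. The p-values were adjusted by Benjamini-Hochberg over all genes tested. An exact permutation test of 2 against 2 libraries cannot go below p = 0.333. Alternatives were other scalings (TMM, quantile), pseudocounts (0.5, 8), filters (none, a mean of at least 50), variance models (no trend, group weights, 2 groups only), edgeR 4.0.16, DESeq2 1.42.0, the deposited tests, a replicate block and leaving out each library. The fit was tested on simulated data. Depth limits low genes, since 3 reads correspond to 2.46 to 3.75 normalized counts, a floor that covers counting error only.

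Members and gene lists were chosen with earlier results of these data known. The named genes were the 10 members, the p53 targets, up to 4 genes per list with the smallest p against DMSO, and the 5 nearest in profile to any member whose group means spanned at least 1 (log2). A gene that the naming rule chose is not reported here.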

Additional observations from a re-analysis of the deposited data

Results flagged for a closer look

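The change between exposure times, tested directly in limma, passed the threshold for 4 of the 10 genes at 9 h against 6 h. The same 4 passed at 12 h against 6 h, and GDF15 alone passed at 12 h against 9 h. Of all tested genes, 18.4% passed at 9 h against 6 h and 4% at 12 h against 9 h. At 12 h against 6 h 31.5% of all tested genes passed. GDF15 was lower at 9 h than at 6 h (−0.45), at 12 h than at 9 h (−0.30) and at 12 h than at 6 h (−0.75). INHBA was lower at 9 h than at 6 h (−0.46) and at 12 h than at 6 h (−0.54). BMP2 was higher at 9 h than at 6 h (0.36) and at 12 h than at 6 h (0.40), and LTBP2 likewise (0.17 and 0.20). In all 9 of these comparisons both libraries of the later time lay on the same side of both libraries of the earlier time. This adds no support, since limma called the 9 from these same values. At 12 h against 9 h, INHBA, TGFB1, TGFB2, TGFB3 and BMP4 also had no overlap, and limma called none of them. Their adjusted p-values in limma were 0.443, 0.877, 0.804, 0.119 and 0.912. The share of all tested genes without overlap is not given here. Exposure time and harvest time cannot be told apart here.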

How the results depend on the processing

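The increases of GDF15, INHBA and LTBP2 at each time and of BMP2 at 9 and 12 h were called under every alternative. Counts of called genes among the 10 moved by over 1.5 times for falls and for differences between times. Risen at 6 h (4) were 3 without the trend, at 9 h (5) 4 without the trend or with the 2 groups only, and at 12 h (4) 5 with TMM, quantile scaling, group weights or edgeR. Fallen at 6 h (2) were 1 with quantile scaling, without the trend or in a fit of the 2 groups only, and 0 by DESeq2 and by the deposited tests. Fallen at 9 h (1) were 2 with a mean of at least 50 and 0 by DESeq2 and the deposited tests. Fallen at 12 h (3) were 1 by DESeq2 and 1 by the deposited tests. Risen at 9 against 6 h (2) were 1 without a filter, without the trend or by DESeq2, and at 12 against 6 h (2) 1 without the trend or by DESeq2. Fallen at 12 against 9 h (1) were 0 without the trend and 2 with group weights. With single libraries left out, counts at 6 h ranged from 4 to 4 risen and 0 to 3 fallen, at 9 h from 4 to 5 and 0 to 2, and at 12 h from 4 to 5 and 0 to 3. At 9 against 6 h they ranged from 0 to 2 risen and 2 to 3 fallen, at 12 against 9 h from 0 to 0 and 0 to 1, and at 12 against 6 h from 0 to 3 and 2 to 3. GDF15 then ranged from 4.45 to 4.60 at 6 h, 3.997 to 4.15 at 9 h, 3.69 to 3.84 at 12 h, and −0.78 to −0.72 for 12 against 6 h. The cause was not tested.

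Changes of sign occurred for values not called with all libraries. With single libraries left out, the lowest and highest were, against DMSO, TGFB3 at 9 h −0.0596 and 0.241, BMP6 at 9 h −0.124 and 0.473, GDF11 −0.108 and 0.0775 at 9 h and −0.0549 and 0.131 at 12 h. GDF11 at 9 h was 0.0028 with TMM and 0.0594 with quantile scaling. For 9 against 6 h they were TGFB2 −0.0409 and 0.0993, BMP4 −0.00648 and 0.0206, and BMP6 −0.392 and 0.0166. For 12 against 6 h they were TGFB2 −0.102 and 0.0378, and BMP6 −0.0595 and 0.22. For 12 against 9 h they were BMP2 −0.0415 and 0.113, GDF11 −0.0148 and 0.121, and LTBP2 −0.0138 and 0.0703. Among list genes at 6 h they were GDF5 −0.0194 and 0.29, INHBE −0.321 and 0.757, INHBB −0.175 and 0.0205, FBN2 −0.0983 and 0.00972, and ID3 −0.1001 and 0.00444. At 9 h they were GDF6 −0.283 and 0.0988, INHBE −1.02 and 0.0578, INHBB −0.0649 and 0.00431, and TWSG1 −0.0274 and 0.181. At 12 h they were GDF6 −0.502 and 0.0941, TWSG1 −0.147 and 0.0607, and ID4 −0.199 and 0.0684. With quantile scaling TWSG1 was 0.00169 and ID4 0.0257 at 12 h.

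Over all genes at 9 against 6 h, 1199 rose and 1393 fell, against 597 and 740 without the trend and 786 risen by DESeq2. At 12 against 9 h 152 rose and 411 fell, against 30 and 144 without the trend, 529 and 858 with the 2 groups only, and 428 and 812 with group weights.

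Replicate numbers did not pair the libraries (correlations of same-numbered deviations of −0.152 to 0.0914 over the 6 pairs of groups). With a replicate block, 4, 5 and 5 of the 10 rose and 2, 1 and 3 fell at 6, 9 and 12 h, 2 and 2 at 9 against 6 h, 0 and 1 at 12 against 9 h and 2 and 3 at 12 against 6 h. In the block GDF15 was 4.52, 4.07, 3.77 and −0.75 (12 against 6 h), and TGFB1 was called at 12 h (adjusted p = 0.0408) and, lower, at 12 against 6 h (0.0466).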
